A study of Rattus norvegicus with 6 samples.

Results

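Macrophage and leukocyte marker genes were followed in kidney RNA from a rat model of focal segmental glomerulosclerosis (FSGS), in which segments of some glomeruli, the filters of the kidney, turn to scar. The genes were Ptprc, Cd68, Aif1, Adgre1, Cd163, Cd14, Itgam and C1qa, chosen by Ensembl identifier. All 8 identifiers were found among the 21986 genes of the expression table, each on the chromosome given for it. The table carries no gene symbols, so the names rest on this pairing of identifiers with symbols, for which only the chromosome could be checked.

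The animals were male Wistar rats with genotype WT. The FSGS group, 3 samples, had the left kidney removed by surgery and received adriamycin, a DNA-damaging anthracycline, through the tail vein, with 5 mg/kg given on postoperative day 7 and another 3 mg/kg on day 28. The control group, also 3 samples, received saline in the same volume. The titles of all 6 samples carry the word untreated, which goes against the injections in their treatment field, and the groups were taken from the names control and FSGS in the titles. No operation is stated for the controls, so effects of the surgery and of adriamycin cannot be told apart. For age, time of collection and side of the sampled kidney, no value is given in the sources used here. Nothing in the labels says that each library came from its own animal, so each p-value refers to variation among these samples, part of which may be technical. The defining markers of kidney cell types and the markers of other leukocytes were not analysed here, because nothing used here ties their names to identifiers.

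Leukocytes are the white blood cells, and macrophages are those among them that engulf particles, dead cells and debris. The healthy kidney holds resident macrophages between its tubules, and monocytes from the blood enter injured kidneys and become macrophages there. Ptprc encodes CD45, a tyrosine phosphatase on the surface of nearly all nucleated blood cells, so it marks leukocytes at large. Cd68 encodes a heavily glycosylated lysosomal membrane protein of macrophages, and Aif1 encodes IBA1, a calcium- and actin-binding protein of macrophages and microglia. Adgre1 encodes the adhesion receptor whose mouse form is the F4/80 antigen, and Cd163 encodes the scavenger receptor for complexes of haptoglobin and haemoglobin. Cd14 encodes a co-receptor for bacterial lipopolysaccharide, Itgam the CD11b chain of complement receptor CR3 on myeloid cells, and C1qa a chain of C1q, the recognition unit of the classical complement pathway.

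Values are FPKM, fragments counted on a gene and scaled to its length and to all mapped fragments, as deposited by the authors. The column sums ran from 614047 to 691777 FPKM in controls and from 754892 to 824403 in FSGS libraries, and the sequencing depth is unknown. Mitochondrially encoded genes took 51.6% to 62.9% of the summed FPKM in controls and 64.0% to 71.7% in FSGS. Both this share and the column sum rose with the replicate number in each group. Replicate 3 of both groups lay apart from the other libraries on the second principal component (7.65% of the variance). The part of these library differences in the results was not tested. Genes with a mean of at least 0.5 FPKM over the 6 libraries were tested with limma on log2(FPKM + 1), 14139 genes in all, with Benjamini-Hochberg adjustment of the p-values across the whole of them. At an adjusted p under 0.05, 3814 genes (27.0%) were higher and 2408 (17.0%) lower in FSGS, with a median log2 change of 0.11 over all tested genes. This split depended on the scaling of the libraries. It was 3463 higher against 3485 lower with median-of-ratios scaling, 2012 against 3191 with TPM, 3652 against 3356 with quantile normalization and 5857 against 2210 after rescaling without mitochondrial and the most abundant genes.

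All 8 marker genes had higher values in every FSGS library than in every control library. The mean of C1qa was 8.15 times the control mean, that of Cd14 7.88 times and that of Cd68 5.39 times. Aif1 was at 2.89 times, Ptprc at 2.50 times and Adgre1 at 1.75 times its control mean. Itgam and Cd163 were close to the bottom of the scale in controls and measurable in all 3 FSGS libraries. Over all tested genes, 34.6% had no overlap with FSGS above. In limma, 7 of the 8 markers could be tested and all 7 were called higher, where 27.0% of tested genes were; 0 were called lower. That count is not read as support, because Itgam passed the filter on low values through its FSGS libraries alone, and Cd163 did not pass it. The median log2 change of the 8 genes was 1.38, beside 0.11 over all tested genes. The 8 genes of this median and of the lack of overlap include Cd163, which is not among the tested genes. In bulk tissue RNA, a change in the number of cells of a type and a change in RNA per cell cannot be told apart.

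**Figure D1:**
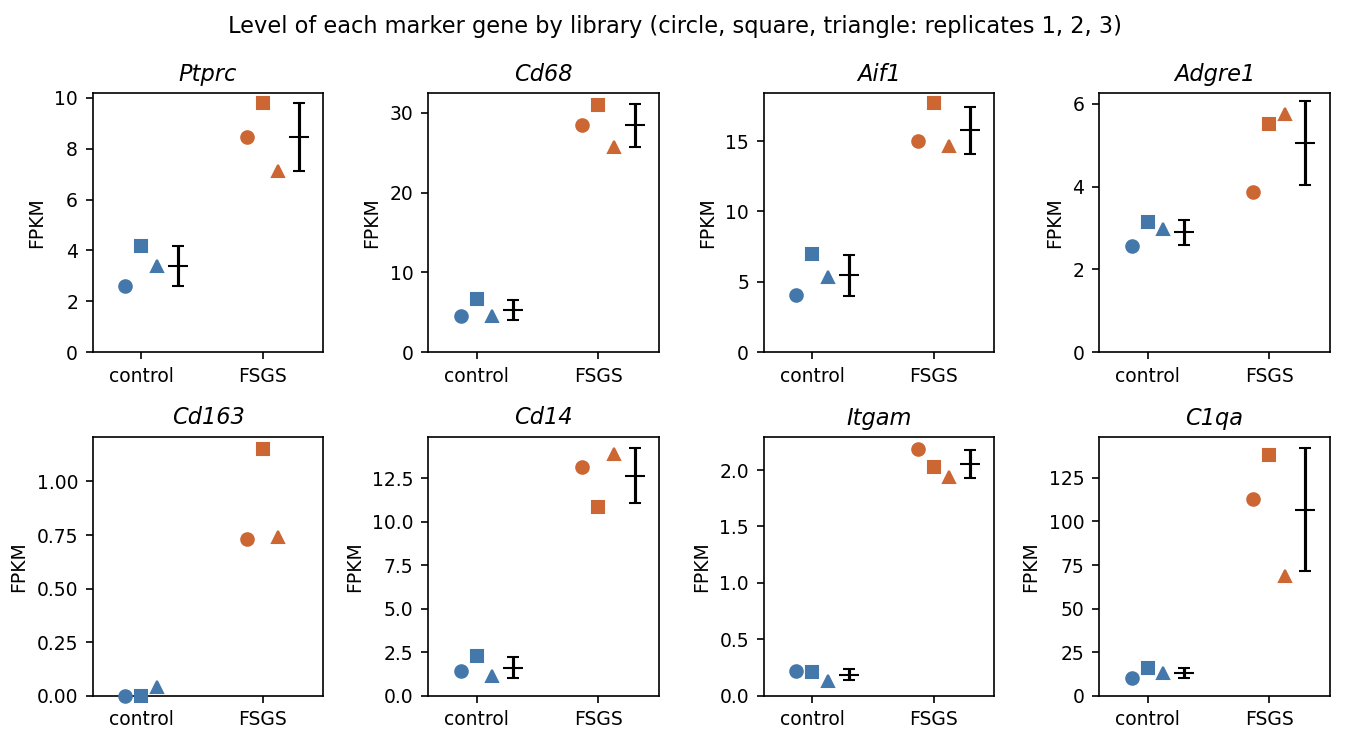
FPKM (vertical axis, linear, from 0, with its own scale in each panel) of the 8 marker genes in 3 control and 3 FSGS libraries; symbols are replicates, and the bar beside them is the mean with its SD (not drawn for Cd163). In every panel the 3 FSGS points lie above the 3 control points, with the narrowest gap for Adgre1.

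Ptprc (ENSRNOG00000000655, chromosome 13), the marker of leukocytes at large, stood at 2.61, 4.16 and 3.37 FPKM in controls 1, 2 and 3 and at 8.45, 9.81 and 7.13 FPKM in FSGS 1, 2 and 3. The lowest FSGS library was 1.71 times the highest control. The group means were 3.38 ± 0.775 and 8.46 ± 1.34 FPKM (SD, n = 3 each), a ratio of 2.50. The log2 change was 1.12 ± 0.17 (SE; 95% interval 0.72 to 1.51; limma adjusted p = 0.00109), and 7.07% of tested genes had a larger one.

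Among the markers of macrophages as a class, Cd68 (ENSRNOG00000037563, chromosome 10) had the larger change. Its values were 4.54, 6.72 and 4.56 FPKM in controls and 28.51, 31.0 and 25.7 FPKM in FSGS libraries, in the order of the replicates. The 3 FSGS libraries were tightly grouped, the highest being 1.21 times the lowest, and far from the controls. The means were 5.27 ± 1.25 and 28.4 ± 2.65 FPKM (SD, n = 3 each), a ratio of 5.39. On the log2 scale the change was 2.24 ± 0.16 (SE; 95% interval 1.87 to 2.62; limma adjusted p = 3.56e-05), and 1.20% of tested genes had a larger one. Aif1 (ENSRNOG00000000853, chromosome 20) had 4.06, 7.00 and 5.32 FPKM in controls against 14.97, 17.69 and 14.67 FPKM in FSGS. The groups did not overlap. The ratio of the means was 2.89 and the log2 change 1.40 ± 0.18 (SE; limma adjusted p = 0.00045).

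Of the receptor genes Adgre1 and Cd163, Adgre1 gave the smallest log2 change of the tested markers and Cd163 the lowest level of all 8. Neither could be tied here to resident or to recruited macrophages. Adgre1 (ENSRNOG00000046254, chromosome 9) was at 2.56, 3.14 and 2.98 FPKM in controls and at 3.88, 5.52 and 5.76 FPKM in FSGS. FSGS 1 came closest to the controls, at 1.24 times the highest of them. The means were 2.89 ± 0.30 and 5.05 ± 1.02 FPKM (SD, n = 3 each), a ratio of 1.75. The log2 change was 0.62 ± 0.16 (SE; 95% interval 0.26 to 0.99; limma adjusted p = 0.0129), and 18.2% of tested genes had a larger one. The call was lost under 2 of the 4 other scalings, with a log2 change of 0.42 with TPM (limma adjusted p = 0.109) and 0.47 with quantile normalization (limma adjusted p = 0.0757). Of the 6 libraries left out singly, 1 ended it: without FSGS replicate 2 the change was 0.56 (limma adjusted p = 0.051). Without replicate 3 of both groups it was 0.56 too (limma adjusted p = 0.0799).

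Cd163 (ENSRNOG00000010253, chromosome 4) read 0 FPKM in controls 1 and 2 and 0.04 FPKM in control 3, and was at 0.73, 1.15 and 0.74 FPKM in FSGS 1, 2 and 3. A listed 0 may stand for an estimate that failed, so no fold is given. With a mean of 0.443 FPKM over the 6 libraries the gene fell short of the filter and was not tested. When the filter was dropped its log2 change of 0.88 ± 0.10 (SE) passed the test (limma adjusted p = 0.00163). That test and its SE rest on the same listed 0 values, which the pseudocount of 1 exceeds by far. The change was 3.09 with a pseudocount of 0.1 and 0.23 with a pseudocount of 5.

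Cd14 and Itgam encode surface proteins of monocytes and other myeloid cells. Cd14 (ENSRNOG00000017819, chromosome 18) rose from 1.41, 2.28 and 1.12 FPKM in controls to 13.12, 10.87 and 13.91 FPKM in FSGS. The groups were far apart, with the lowest FSGS library at 4.77 times the highest control. The means were 1.6 ± 0.604 and 12.6 ± 1.58 FPKM (SD, n = 3 each), a ratio of 7.88, with a log2 change of 2.41 ± 0.18 (SE; limma adjusted p = 4.29e-05).

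Itgam (ENSRNOG00000019728, chromosome 1) was at 0.22, 0.21 and 0.13 FPKM in controls and at 2.19, 2.03 and 1.94 FPKM in FSGS. The FSGS libraries agreed closely, with the highest at 1.13 times the lowest. The ratio of the means was 11.0, the largest among the 7 tested markers, but the control values are low and the table carries only 2 decimals. The log2 change was 1.36 ± 0.13 (SE; limma adjusted p = 9.98e-05). The control mean of 0.187 FPKM lies under the filter of 0.5, so the gene was tested only because it is higher in FSGS. That scale understates low genes: it was 2.92 with a pseudocount of 0.1 and 0.44 with a pseudocount of 5.

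C1qa (ENSRNOG00000012807, chromosome 5), the complement gene, was the most abundant of the 8 in each of the 6 libraries. It stood at 10.12, 16.03 and 13.17 FPKM in controls and at 113.1, 138.3 and 68.94 FPKM in FSGS. The FSGS libraries spread more than for any other tested marker, with FSGS 2 at 2.01 times FSGS 3, yet FSGS 3 was still 4.30 times the highest control. The means were 13.1 ± 2.96 and 107 ± 35.1 FPKM (SD, n = 3 each), a ratio of 8.15. The log2 change was 2.90 ± 0.26 (SE; 95% interval 2.31 to 3.49; limma adjusted p = 8.46e-05), and 0.474% of tested genes had a larger one.

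**Figure D2:**
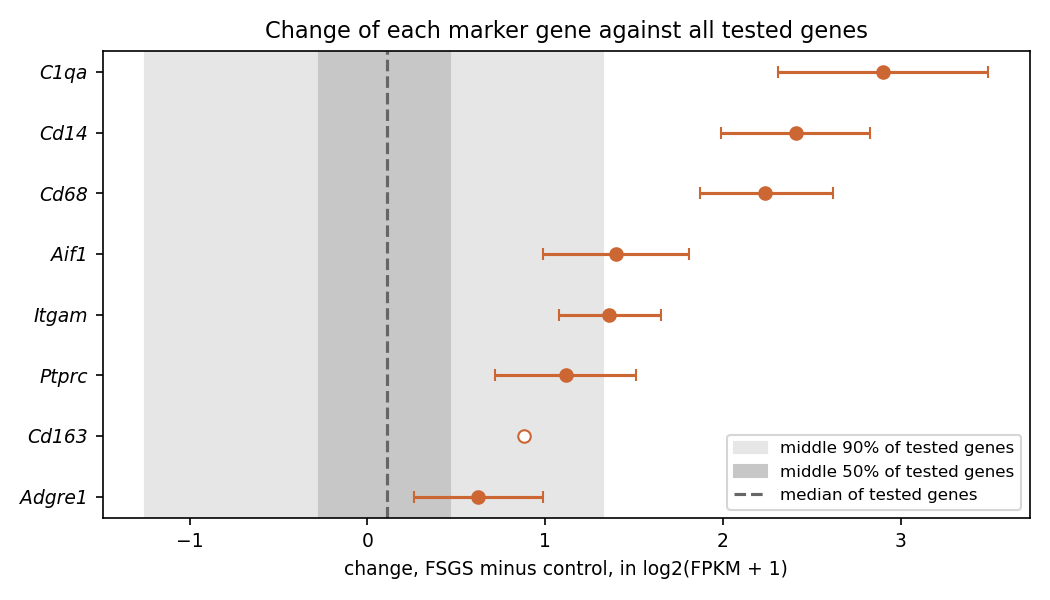
Change of each marker in log2(FPKM + 1), FSGS minus control (horizontal axis), as points with 95% intervals from limma; the open point, Cd163, was not tested and has no interval. Grey bands hold the middle 50% and 90% of the 14139 tested genes around their median of 0.11. The points of C1qa, Cd14, Cd68, Aif1 and Itgam lie to the right of the wider band, and those of Ptprc, Cd163 and Adgre1 lie inside it.

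The order of the levels, which FPKM states per length of gene, shifted between the groups. In controls it ran from C1qa through Aif1, Cd68, Ptprc, Adgre1, Cd14 and Itgam to Cd163. Aif1 and Cd68 were not separable there, since their ranges overlapped and Aif1 was above Cd68 in only 2 of 3 control libraries. Ptprc and Adgre1 also overlapped in range, though Ptprc was above Adgre1 in all 3. In FSGS the order was C1qa, Cd68, Aif1, Cd14, Ptprc, Adgre1, Itgam and Cd163, and no neighbours overlapped. Cd14 was thus below Ptprc in all 3 control libraries and above it in all 3 FSGS libraries.

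Each marker was also set against Ptprc within its own library, since a ratio of 2 genes of 1 library does not change with the scaling of that library. C1qa stood at 3.88, 3.85 and 3.91 times Ptprc in controls 1, 2 and 3, a nearly constant ratio, and at 13.4, 14.1 and 9.67 times in FSGS 1, 2 and 3. Cd14 went from 0.54, 0.548 and 0.332 of the Ptprc level to 1.55, 1.11 and 1.95 times that level. Cd68 went from 1.74, 1.62 and 1.35 times Ptprc to 3.37, 3.16 and 3.60 times. For these 3 genes the ratio to Ptprc was 3.15, 3.24 and 2.16 times higher in FSGS, in that order, with no overlap between the groups. The share of all genes whose ratio to Ptprc has no overlap was not counted, so this separation is a description only.

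Itgam, at 0.0843, 0.0505 and 0.0386 of the Ptprc level in controls, was at 0.259, 0.207 and 0.272 of it in FSGS, a ratio 4.46 times higher. That difference of 2.16 on the log2 scale was 0.25 with a pseudocount of 1, which is larger than the control values themselves, and the groups then overlapped (two-sided exact permutation p = 0.3). Aif1 kept nearest to Ptprc, at 1.56, 1.68 and 1.58 times its level in controls and 1.77, 1.80 and 2.06 times in FSGS, 1.17 times higher and with a narrow gap between the groups. Adgre1 went the other way, from 0.981, 0.755 and 0.884 of the Ptprc level to 0.459, 0.563 and 0.808 of it. Its groups overlapped, because FSGS 3 lay above control 2, and its log2 ratio differed by -0.55. Two-sided exact permutation tests gave p = 0.1 for the other 5 plain ratios, the smallest that 3 against 3 samples allow, and p = 0.2 for Adgre1. After Benjamini-Hochberg adjustment over the 6 ratios these were 0.12 and 0.2, so no ratio passed a threshold of 0.05, which this design cannot reach. The ratio for Cd163 could not be formed, as it was listed at 0 in 2 control libraries.

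**Figure D3:**
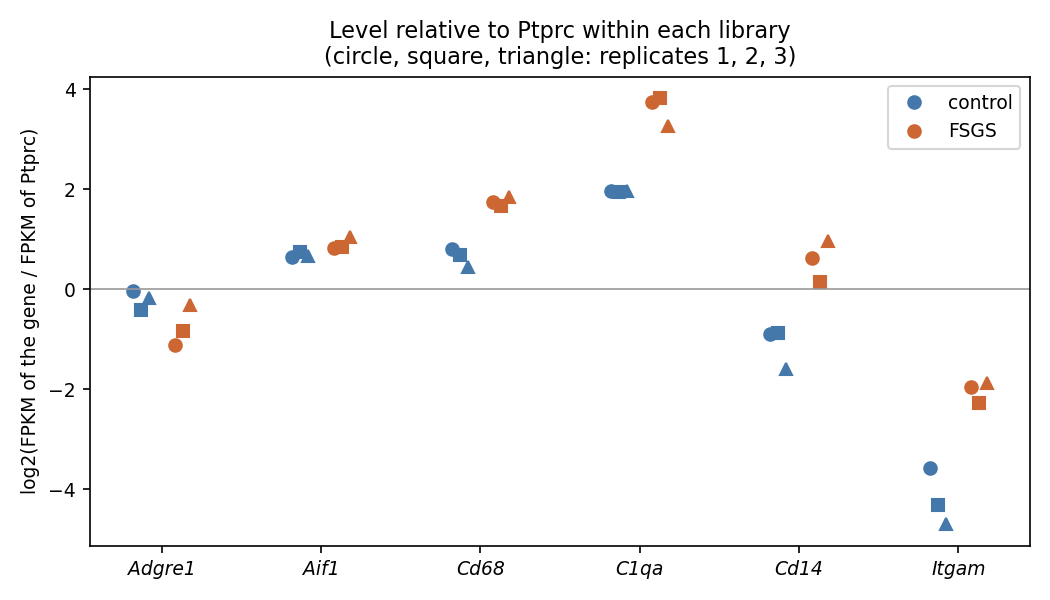
Level of 6 markers relative to Ptprc within each library, as log2 of the ratio of FPKM values (vertical axis); 0 means a level equal to Ptprc, and symbols are replicates. The FSGS points of Aif1, Cd68, C1qa, Cd14 and Itgam lie above the control points, and those of Adgre1 overlap them from below.

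Within each group the markers tended to be high and low in the same libraries. Control 2 held the highest control value of 6 of the 8 genes, the exceptions being Itgam and Cd163, and control 1 held the lowest value of 5. Among FSGS libraries, FSGS 2 was highest for 5 genes (Cd68, Cd163, Ptprc, C1qa and Aif1) and FSGS 3 lowest for 5 (Cd68, Itgam, Ptprc, C1qa and Aif1). Cd14 and Adgre1 did the opposite of the latter and were highest in FSGS 3. The genes of a library share its scaling and depth, so this order is a description of 6 libraries.

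Since 1 factor per library shifts nearly all genes alike, the change of each marker was also taken relative to the median of all tested genes, which removes most of that shift by construction. Quantile normalization is not 1 factor per library, so its effect on a gene is not removed in this way. The values show where each marker lay among all genes and are no test of the scaling. For C1qa the change was 2.79 log2 units above the median of all tested genes as deposited, and between 2.76 and 3.07 under the other 4 scalings, highest with quantile normalization. For Aif1 the excess was 1.29 as deposited and 1.27 to 1.30 otherwise, and for Ptprc 1.01 and 0.96 to 1.04. Adgre1 had the smallest excess, at 0.51 as deposited and 0.46 to 0.54 otherwise. The excess of the low genes moved more, from 1.25 as deposited to between 1.20 and 1.60 for Itgam, and from 0.77 to between 0.68 and 1.16 for Cd163.

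**Figure D4:**
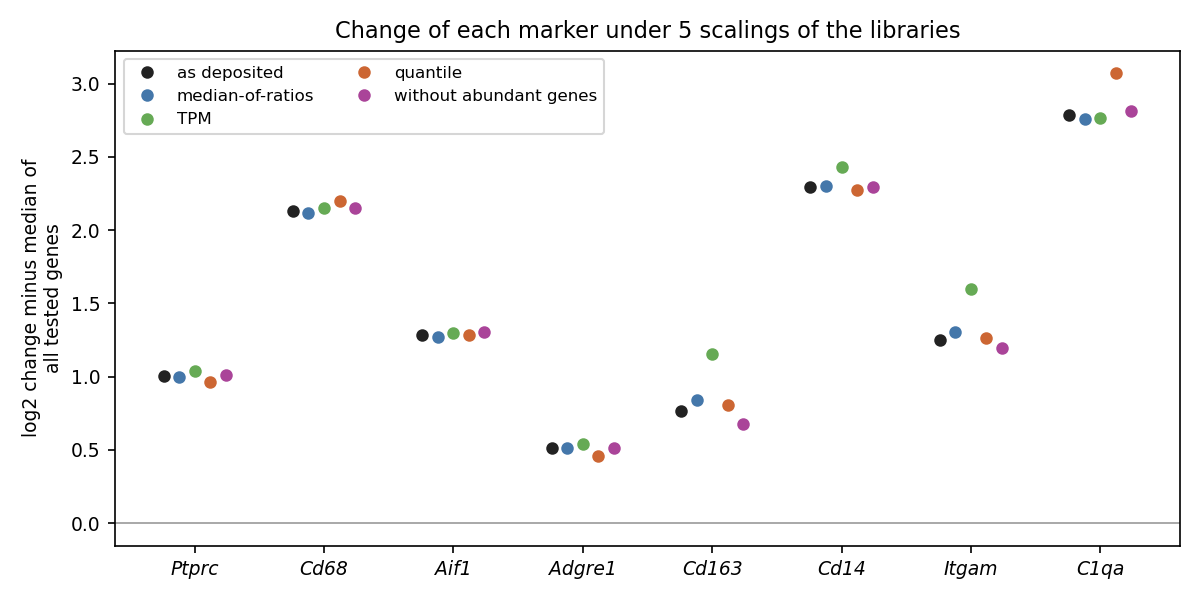
Log2 change of each marker minus the median log2 change of all tested genes (vertical axis) as deposited and under 4 other scalings of the libraries (colours). All points lie above 0. The 5 points of a gene lie close together except for Itgam and Cd163, which lie higher under TPM, and C1qa, which lies higher under quantile normalization.

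By a rule of likeness, the 2 genes whose 6 library values lay nearest to the mean profile of the markers were sought among 7641 other genes with a mean of at least 5 FPKM. Likeness was the root mean square difference, over the 6 libraries, of log2 values taken relative to each gene's control mean. ENSRNOG00000000521 on chromosome 20 lay nearest, at 0.05 log2 units. Its values were 4.32, 5.75 and 4.43 FPKM in controls and 15.92, 19.52 and 15.12 FPKM in FSGS. ENSRNOG00000032396 on chromosome 10 followed, at 0.07 log2 units, with 1.79, 2.51 and 1.96 FPKM in controls and 8.19, 9.36 and 6.76 FPKM in FSGS. Their control means lay under 5 FPKM, so both genes passed that filter only because they are higher in FSGS. Both had control 2 and FSGS 2 as the highest library of their group, as had the mean profile that they were chosen to match. The sources used here give neither gene a symbol.

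Because all 8 markers were higher in FSGS, the DNA in front of them was read from the RefSeq promoter table of the GRCr8 rat assembly, which held 7 of the 8 genes by symbol. The missing one was Aif1. The build behind the expression table was not given in the sources used here, so these coordinates belong to GRCr8 alone. Transcription in macrophages depends on PU.1, a factor of the ETS family that binds purine-rich DNA such as GAGGAA. Many myeloid promoters lack a TATA box. The 250 bases before each annotated start were searched on both strands for 6 motifs. GAGGAA was found in 5 of the 7 marker promoters (Cd68, Itgam, Ptprc, Adgre1 and Cd14), and in 23.3% of all 33469 promoters of the same length. The usual letters of such a box, TATAAA, were found in 0 of 7 and in 12.9% of all.

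Each of the remaining motifs was found in 1 or 2 of the 7 promoters, given here beside its share of all promoters. TGANTCA, an AP-1 site, was in 1 of 7 (Cd68) and 6.34% of all promoters, and GGGA and CC with 4 bases of any kind between them, the outline of an NF-kappaB site, were in 1 of 7 (Cd163) and 16.4% of all. TTNNGCAA, an outline of a C/EBP site, was in 2 of 7 (Itgam and Adgre1) and 9.22% of all. CCGCCC, the core of a GC box, was in 2 of 7 (Itgam and Cd68) and 30.5% of all. No match of one motif overlapped a match of another in these 7 promoters. Matches are descriptions of letters in a window, and binding was not measured. Other purine-rich letters were not searched, so a promoter without GAGGAA may still hold a site for PU.1.

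The 250 bases before the start are shown, 5′ to 3′ on the strand of the gene, for 3 markers that rose and hold the motif (Cd68, Itgam and Ptprc), for Adgre1, which holds it and had the smallest log2 change of the tested markers, and for C1qa, which had the largest and no match. Capitals mark GAGGAA or, where it lies on the opposite strand, its complement read as TTCCTC.
Cd68, chr10:54882442-54882691, minus strand: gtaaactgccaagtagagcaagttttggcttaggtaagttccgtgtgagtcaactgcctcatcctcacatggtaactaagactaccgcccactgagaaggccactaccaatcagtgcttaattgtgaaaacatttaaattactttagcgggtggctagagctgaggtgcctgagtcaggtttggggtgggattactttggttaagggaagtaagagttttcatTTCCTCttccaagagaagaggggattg
Itgam, chr1:192089342-192089591, plus strand: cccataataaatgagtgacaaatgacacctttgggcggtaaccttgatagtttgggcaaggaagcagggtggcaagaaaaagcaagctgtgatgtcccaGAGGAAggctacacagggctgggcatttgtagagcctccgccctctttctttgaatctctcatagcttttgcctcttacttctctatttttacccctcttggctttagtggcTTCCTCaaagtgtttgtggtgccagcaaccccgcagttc
Ptprc, chr13:52259747-52259996, minus strand: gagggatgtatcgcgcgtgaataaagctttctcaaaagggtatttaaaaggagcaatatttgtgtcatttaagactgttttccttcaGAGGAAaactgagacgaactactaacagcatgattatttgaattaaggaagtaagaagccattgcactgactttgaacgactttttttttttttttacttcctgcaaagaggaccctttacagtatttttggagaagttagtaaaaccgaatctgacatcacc
Adgre1, chr9:2329190-2329439, plus strand: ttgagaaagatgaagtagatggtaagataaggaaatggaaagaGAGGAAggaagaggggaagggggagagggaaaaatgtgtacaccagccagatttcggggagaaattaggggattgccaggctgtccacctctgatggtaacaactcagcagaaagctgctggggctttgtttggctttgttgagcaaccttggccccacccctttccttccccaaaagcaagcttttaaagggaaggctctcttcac
C1qa, chr5:154419934-154420183, minus strand: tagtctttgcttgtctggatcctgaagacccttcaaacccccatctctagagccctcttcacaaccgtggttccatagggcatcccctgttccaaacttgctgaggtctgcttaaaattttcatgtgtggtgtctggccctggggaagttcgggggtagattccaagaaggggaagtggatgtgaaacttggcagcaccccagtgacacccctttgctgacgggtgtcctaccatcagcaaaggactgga

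The matches lay at different distances from the start. In Cd68 the first base of the match was 27 bases before the start, on the strand opposite the gene. Itgam held 2 matches, one at 39 bases on the opposite strand and one at 151 bases on its own strand. In Ptprc and Adgre1 the single match was at 163 and 207 bases, on the strand of the gene. Cd14, whose promoter is not shown, held matches at 105 and 140 bases. Without a match to GAGGAA, C1qa rose by 2.90 on the log2 scale and Cd163 by 0.88. The 5 markers with a match rose by 0.62 (Adgre1) to 2.41 (Cd14). A relation between the motif and the change was not tested.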

How the data were processed

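Per the labels' protocols, poly(A) RNA was taken from kidney with oligo(dT) beads, marked by strand with dUTP and sequenced as paired ends. HISAT2 2.2.1, StringTie 2.1.6, cutadapt 1.9, edgeR and DESeq2 are listed, with no role for any, per the submitters' processing notes. For the genome build, no name is given in the sources used here. The authors deposited the values as FPKM, with 2 decimals, per the file headers. FPKM carries no depth, and low values showed no steps of whole reads: at most 12.8% of genes fell in any window of 0.05 in the log2 ratio of a library pair. Genes with a mean of at least 0.5 FPKM were tested by limma 3.58.1 (R 4.3.3) on log2(FPKM + 1) with a mean-variance trend, group alone as the term and Benjamini-Hochberg adjustment over all 14139 genes. The procedure was tested on simulated data. Ratios to Ptprc were compared by exact permutation (scipy 1.17.1).

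The settings varied were the pseudocount, the filter, the scaling, limma's options, a block for the replicate number, and leaving out libraries. Leaving out replicate 3 of both groups was added after seeing the data. The members and lists were chosen with earlier results of these data known. By the rule for named genes, all markers are named, and beyond them the 2 genes of nearest profile. Lists of other cell type markers were not analysed here, since the RefSeq table carried an Ensembl ID in 0 of 47357 rows.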

Additional observations from a re-analysis of the deposited data

How the results depend on the processing

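C1qa, Cd14, Cd68, Aif1 and Ptprc kept their direction and call in all 18 alternatives run, with a highest limma adjusted p of 0.010 (Ptprc, without replicate 3 of both groups). For Cd14 and Ptprc, the filter of 5 FPKM is not read as stability. Their control means were 1.6 and 3.38 FPKM, so they passed that filter only because they are higher in FSGS. Itgam was called in the 17 that tested it, which is not read as stability, since it passed the filter through its FSGS libraries alone. Adgre1 lost its call with TPM (0.42, limma adjusted p = 0.109), quantile normalization (0.47, 0.0757), without FSGS replicate 2 (0.56, 0.051; range 0.54 to 0.77 leaving out single libraries) and without replicate 3 of both groups (0.56, 0.0799), and the cause was not tested. The count of markers called higher was 5 to 8, with 5 tested at a mean of at least 5 FPKM and 8 with no filter. The median log2 change of the 8 genes was 2.68 with a pseudocount of 0.1 and 0.84 with 5, by construction. Cd163 moved from 0.88 to 3.09, 0.23 and 1.04 with pseudocount 0.1, pseudocount 5 and TPM. It passed the test at 0.88 with no filter (limma adjusted p = 0.00163), which rests on its listed 0 values in controls. At a mean of at least 5 FPKM 3672 genes were called, since fewer were tested. No direction of a marker or of a ratio to Ptprc turned in the alternatives run. Leaving out single libraries, the log2 ratio to Ptprc differed by -0.77 to -0.36 for Adgre1 (-0.36 without FSGS replicate 1), and for Aif1 the difference of 0.22 was 0.14 without replicate 3 of both groups. For Cd163 no ratio was formed. Under the replicate block 6900 genes passed and 7 markers rose, as without it. Libraries of one number had deviations that correlated at 0.13, 0.03 and 0.02, and only controls 1 and 3 matched their own number best, so the numbers were not taken as pairs. Depth is unknown, which limits Cd163 and the control values of Itgam most.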
